A study of Mus musculus with 4 samples.

Results

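The segments of the T cell receptor beta locus were examined in B cells sorted from mouse bone marrow. They were taken as every gene whose symbol starts with Trbv, Trbd, Trbj or Trbc, pseudogenes included, which gave 53 of the 55573 genes in the files: 35 V, 2 D, 14 J and 2 C segments. The study compared 2 libraries from wild type C57BL/6 mice (WT 1 and WT 2) with 2 from C57BL/6 mice whose genotype is given as ADAR1 KO (KO 1 and KO 2), all aged 8 to 12 weeks. ADAR1 is the enzyme, encoded by Adar, that edits adenosines to inosines where RNA is paired. Both groups were taken by flow cytometry as Fr.C+C', the Hardy fractions at the step from pro-B to pre-B cell. The sources used here do not give the allele, the exons removed or any Cre driver. Nothing states that each library is a mouse of its own, so p-values measure only the spread between libraries, which may be technical.

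A T cell receptor beta chain is encoded by a gene that is put together during T cell development. The RAG recombinase, which developing B cells also use on their immunoglobulin genes, first joins a D to a J segment and then a V segment to the joined DJ. The V segments lie upstream, followed by a pair of clusters that each hold a D segment, a row of J segments and a constant (C) segment. Unrearranged segments can be transcribed too, and such germline transcripts are known to accompany the opening of a locus before it recombines. Finished beta chains are made by T cells, not by B cells, so the locus is usually silent or weakly transcribed in the B lineage.

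The D and J segments of both clusters are printed here because most of what separates the clusters in these data lies on them. They come from the GENCODE M21 transcripts (GRCm38, plus strand, chromosome 6) and read 5′ to 3′. Capitals mark the J motif, TTNGG followed by any 4 bases and GG, which holds the phenylalanine and glycine codons of most functional J segments. It was the only motif searched, on both strands, and was found in 11 of the 14 J segments, on the plus strand only. It was absent from Trbj1-6, Trbj1-7 and the pseudogene Trbj2-6. Windows of 50 nt from protein-coding transcripts held it on either strand in 1.93% of cases. The first cluster (J1) spans 41533864 to 41535687 behind Trbd1:
Trbd1: gggacagggggc
Trbj1-1: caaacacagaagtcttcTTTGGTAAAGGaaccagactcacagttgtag
Trbj1-2: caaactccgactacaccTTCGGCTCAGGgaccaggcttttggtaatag
Trbj1-3: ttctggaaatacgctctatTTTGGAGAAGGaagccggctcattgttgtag
Trbj1-4: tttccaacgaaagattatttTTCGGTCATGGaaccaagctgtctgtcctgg
Trbj1-5: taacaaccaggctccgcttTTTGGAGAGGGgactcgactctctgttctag
Trbj1-6: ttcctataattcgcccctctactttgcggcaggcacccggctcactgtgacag
Trbj1-7: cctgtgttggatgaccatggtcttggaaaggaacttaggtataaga
The second cluster (J2) spans 41542754 to 41543856 behind Trbd2:
Trbd2: gggactgggggggc
Trbj2-1: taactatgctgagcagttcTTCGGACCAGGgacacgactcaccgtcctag
Trbj2-2: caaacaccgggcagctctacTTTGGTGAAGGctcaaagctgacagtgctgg
Trbj2-3: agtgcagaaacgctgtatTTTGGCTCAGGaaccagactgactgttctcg
Trbj2-4: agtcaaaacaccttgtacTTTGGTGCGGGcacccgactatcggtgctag
Trbj2-5: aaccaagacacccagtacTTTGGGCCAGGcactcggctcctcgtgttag
Trbj2-6: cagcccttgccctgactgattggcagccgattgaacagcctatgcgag
Trbj2-7: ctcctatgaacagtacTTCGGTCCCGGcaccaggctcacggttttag

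Each cluster ends in a constant segment, and Trbc1 and Trbc2 are near-copies. Over 518 coding bases they differed at 23 (95.6% identical), with 1 difference in the 375 bases of exon 1. The third coding exon is shown because it holds the most differences of any coding exon, 15 in 107 bases. Capitals mark the differing bases. The Trbc1 exon lies at chr6:41539229-41539335 and the Trbc2 exon at chr6:41547772-41547878 (GRCm38, plus strand).
Trbc1: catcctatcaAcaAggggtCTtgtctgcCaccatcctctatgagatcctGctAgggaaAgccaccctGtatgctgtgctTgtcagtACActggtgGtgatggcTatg
Trbc2: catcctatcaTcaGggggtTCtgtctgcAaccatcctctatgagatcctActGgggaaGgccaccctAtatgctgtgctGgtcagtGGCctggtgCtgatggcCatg
Of 718 runs of 30 bases in Trbc1 and 663 in Trbc2, 323 occur in both. The split between them is therefore uncertain, and their sum is the safer quantity. None of the runs of 30 bases in the 14 J segments occurs in the annotated transcripts of another gene.

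The files give FPKM, fragments per kilobase of exon per 1000000 fragments assigned to genes. The values fall on whole multiples of 1 fragment, which gave 15122232 to 16416133 fragments assigned to genes per library and let each segment be read as a fragment number. On a J segment of 50 nt 1 fragment was worth 1.22 to 1.32 FPKM, so FPKM exaggerates short segments. A fragment also extends past a segment of that length, so J and C segments are not compared per length. Adar itself, the targeted gene, measured 15.04 and 14.62 FPKM in the WT libraries and 15.19 and 16.79 FPKM in the KO libraries, a level that does not check the genotype label because it covers the whole gene. KO 2 stood apart from the other libraries. The summed FPKM of 14 neutrophil genes was 27670 and 25864 in wild type against 36315 and 73973 in KO 1 and KO 2, and that of 20 B lineage genes 3498 and 3626 against 2910 and 1641. The part of these shifts in the results below was not tested, and without KO 2 none of the tested segments passed.

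The locus gave little RNA, and it was of the same order in every library. All 53 segments together held 211 and 195 fragments in WT 1 and WT 2 and 234 and 194 in KO 1 and KO 2, which is 13.4, 11.9, 14.8 and 12.8 FPM (fragments per 1000000 assigned fragments, with no division by length). The group means were 12.6 ± 1.04 and 13.8 ± 1.37 FPM (SD, n = 2), a ratio of 1.09 of KO to wild type, and the groups overlapped. Of the 53 segments 37 had at least 1 fragment in some library, 18 had one in all 4 libraries and 16 were at 0 throughout. Only 16 segments reached 10 fragments over the 4 libraries. The map of fragments along the locus shows them gathered on the constant segments, the first J cluster and a group of V segments.

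**Figure D1:**
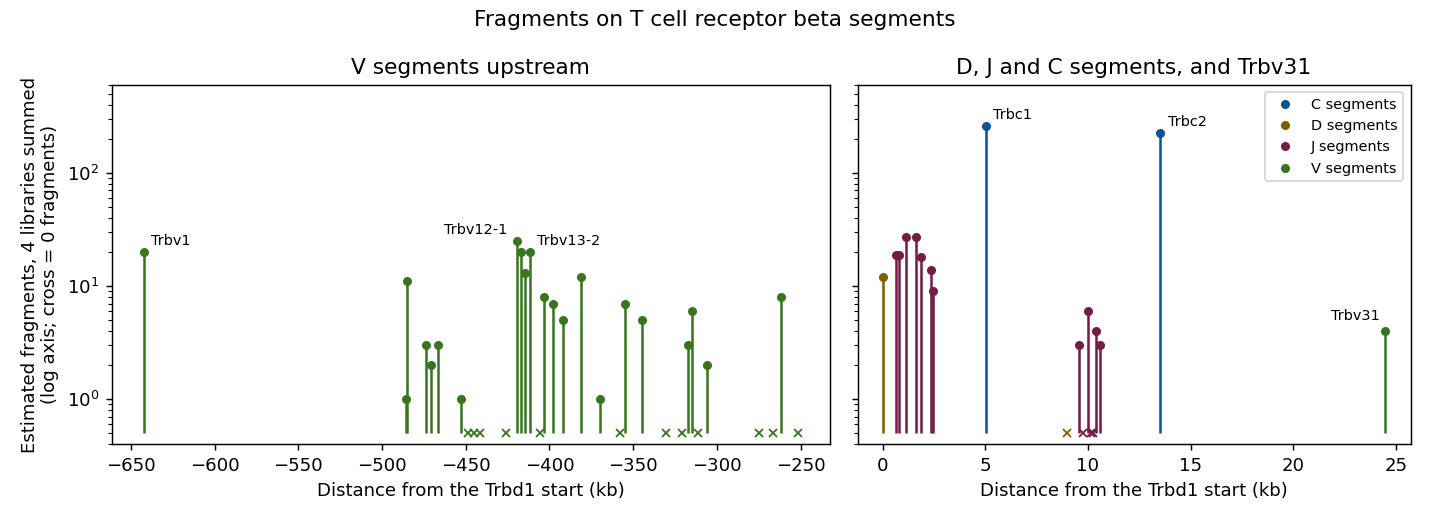
Estimated fragments on each T cell receptor beta segment, summed over the 4 libraries (log axis), against distance in kb from the start of Trbd1; each stem is 1 segment, coloured by class, and crosses are segments at 0. Trbc1 and Trbc2 stand highest with 261 and 225 fragments, the 7 J1 segments hold 9 to 27 each, and no J2 segment holds more than 6.

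The constant segments carried most of the signal. Trbc1, at 41538218 to 41539881, measured 6.59 and 5.53 FPKM in the WT libraries and 5.23 and 4.68 FPKM in the KO libraries, resting on 78, 68, 62 and 53 fragments. Both KO libraries lay below both wild type libraries, by a small margin. Its group means were 6.06 ± 0.750 and 4.96 ± 0.389 FPKM (SD, n = 2), and the log2 change of -0.24 ± 0.16 (SE) did not pass in limma (adjusted p = 0.531). The 95% interval of its change ran from -0.66 to 0.17 on the log2 scale, which is 0.634 to 1.13 of the wild type level. Trbc2, at 41546730 to 41548352, was at 6.04 and 4.05 FPKM against 5.38 and 5.16 FPKM, on 66, 46, 59 and 54 fragments. Its KO libraries lay between the wild type libraries. The log2 change of Trbc2 was 0.07 ± 0.21 (SE, adjusted p = 0.872 in limma, 95% interval -0.45 to 0.60). Trbc1 and Trbc2 together held 144 and 114 fragments in wild type and 121 and 107 in the KO libraries, 8.03 ± 1.53 and 7.36 ± 0.398 FPM (SD, n = 2). The sign of this difference was not stable. The log2 ratio went from -0.13 to 0.08 without WT 1, and to 0.57 with scaling to the B lineage genes. Trbc1 took 54.2%, 59.6%, 51.2% and 49.5% of the constant fragments in WT 1, WT 2, KO 1 and KO 2, and its share of the exon length is 52.0%. The exact (Clopper-Pearson) 95% intervals of these shares, which cover counting error only, overlapped in all libraries.

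The clearest pattern in the locus was the contrast between its J clusters. This comparison was not among those planned, so its intervals and p-value are a description. The J1 cluster held 26, 30, 38 and 39 fragments in WT 1, WT 2, KO 1 and KO 2, and the J2 cluster 4, 2, 4 and 6. J1 was the higher in 4 of 4 libraries, by 6.5-fold to 15-fold. The J1 share of J fragments was 86.7% (95% interval 69.3 to 96.2) and 93.8% (79.2 to 99.2) in WT 1 and WT 2, and 90.5% (77.4 to 97.3) and 86.7% (73.2 to 94.9) in KO 1 and KO 2. By exon length J1 would hold 50.5%, which lies below all 4 exact binomial intervals. Exon length is only a rough guide here, since fragments extend past segments this short. How fragments touching neighbouring J segments were counted is not known. The mean difference between the clusters was 1.86 ± 0.378 FPM (SD, n = 4 libraries), and an exact sign-flip permutation test over the libraries gave a two-sided p = 0.125, the smallest it can give with 4. The D segments, which are shorter still, were split the same way. Trbd1, with 12 bases, had 1, 2, 6 and 3 fragments in WT 1, WT 2, KO 1 and KO 2 (5.27, 10.15, 31.56 and 16.53 FPKM), and Trbd2, with 14 bases, had 0 in every library. The fragments assigned to the constant segments downstream of the clusters were divided almost evenly. Their split is uncertain, since 323 runs of 30 bases occur in both, so it cannot show whether this contrast extends to them.

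**Figure D2:**
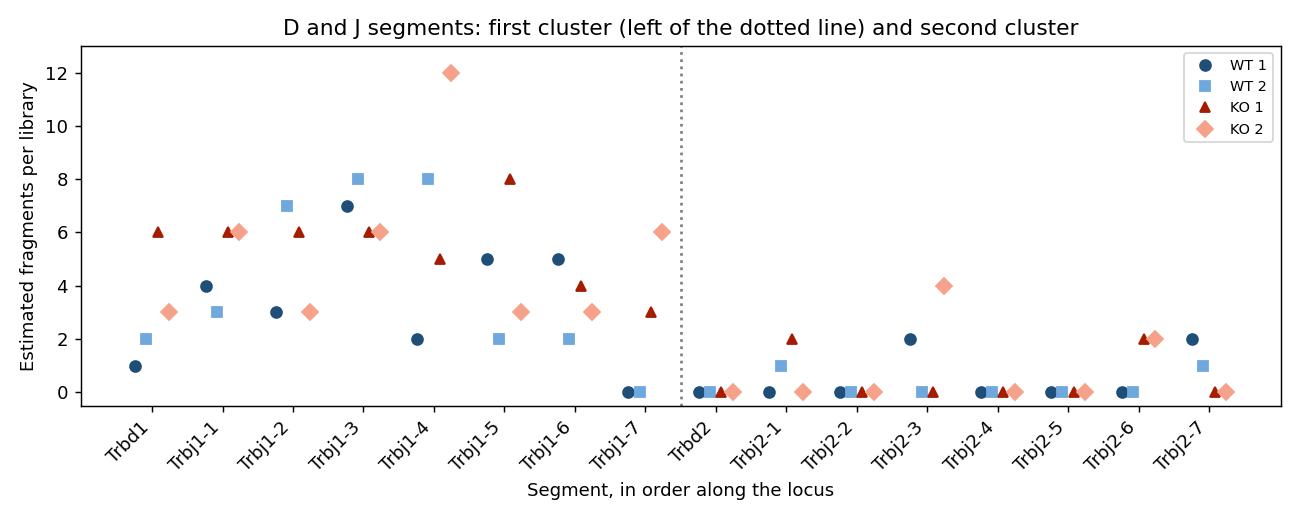
Estimated fragments per library on each D and J segment in their order along the locus, with WT libraries in blue and KO libraries in red; the dotted line separates the first cluster from the second. Segments of the first cluster reach up to 12 fragments in a library, whereas those of the second stay at 4 or fewer and Trbd2, Trbj2-2, Trbj2-4 and Trbj2-5 are at 0 in all 4.

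Within the J1 cluster the fragments were spread over all 7 segments rather than on 1 of them. Trbj1-3 was the steadiest, with 7, 8, 6 and 6 fragments in WT 1, WT 2, KO 1 and KO 2 (8.20, 9.02, 7.01 and 7.35 FPKM). Trbj1-4 had the same total of 27 but varied most, with 2 and 8 fragments in wild type against 5 and 12 (2.48, 9.55, 6.19 and 15.56 FPKM). Both of these segments carry the J motif. Trbj1-1 had 4 and 3 fragments against 6 and 6 (5.27, 3.81, 7.89 and 8.27 FPKM), with both KO libraries above both wild type libraries. Trbj1-2 had 3 and 7 against 6 and 3 (3.96, 8.88, 7.89 and 4.13 FPKM). Trbj1-5 had 5 and 2 against 8 and 3 (6.33, 2.44, 10.10 and 3.97 FPKM). The groups overlapped for Trbj1-2, Trbj1-5 and Trbj1-6, whose values were 5.97, 2.30, 4.76 and 3.74 FPKM on 5, 2, 4 and 3 fragments. Trbj1-7, 1 of the 3 J segments without the motif, was at 0 in both wild type libraries and had 3 and 6 fragments in KO 1 and KO 2. A count of 0 allows up to 3 fragments, so a fold against wild type is not given. In the J2 cluster Trbj2-3 had 2, 0, 0 and 4 fragments and the pseudogene Trbj2-6 had 0, 0, 2 and 2. Trbj2-1 and Trbj2-7 had 3 each in all, and the other 3 segments had none.

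Summed over J segments, the KO libraries were somewhat higher. The 14 segments held 30 and 32 fragments in wild type and 42 and 45 in the KO libraries, or 1.92 ± 0.0358 against 2.81 ± 0.229 FPM (SD, n = 2), a ratio of 1.46. The groups did not overlap, but the 95% Poisson intervals of the single libraries did (1.28 to 2.71 in WT 1 and 1.33 to 2.75 in WT 2, against 1.91 to 3.58 in KO 1 and 2.17 to 3.98 in KO 2). An exact permutation test gave p = 0.333, the smallest that 2 libraries against 2 allow. D fragments went from 3 in the wild type libraries together to 9 in the KO libraries (exact permutation p = 0.333), all on Trbd1. V and C sums overlapped between the groups, as the plot of class sums shows.

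**Figure D3:**
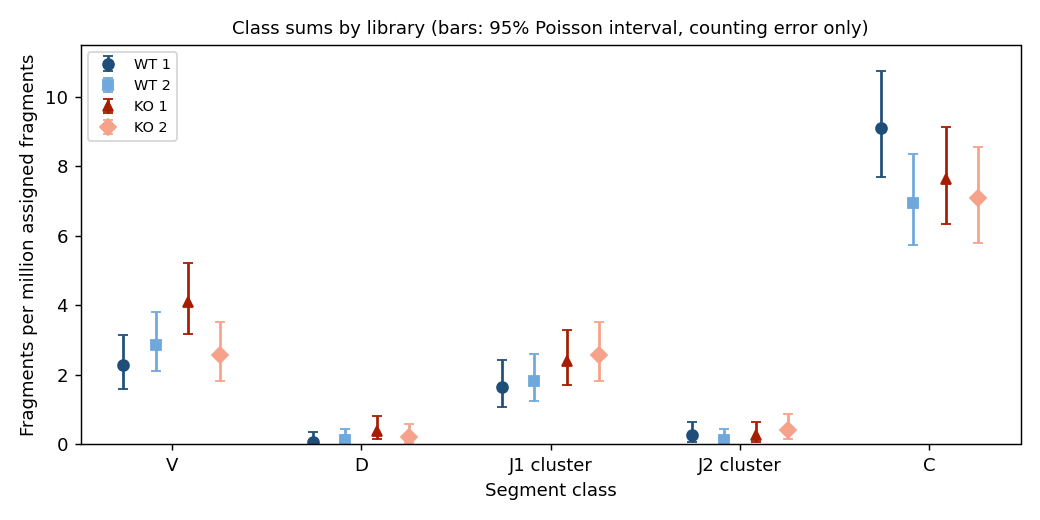
FPM in each segment class by library, with exact 95% Poisson intervals that cover counting error only. The C segments lie between 6.94 and 9.11 FPM in all 4 libraries, the J1 cluster between 1.65 and 2.58, and the J2 cluster at or below 0.397.

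V segments were detected thinly and unevenly. Of 35 V segments 23 had a fragment in some library, 14 to 18 in any one library, and 9 in all 4. They held 36 and 47 fragments in WT 1 and WT 2 and 65 and 39 in KO 1 and KO 2, that is 2.57 ± 0.413 and 3.34 ± 1.08 FPM (SD, n = 2; exact permutation p = 0.667, where the smallest possible is 0.333). The highest library was KO 1, without which the log2 ratio of KO to wild type went from 0.38 to 0.0046. Detection followed the annotation of the segments. Of 22 functional V segments 20 were detected, with 177 fragments on 8.63 kb of exon (20.5 per kb), against 3 of 13 pseudogenes, with 10 fragments on 3.92 kb (2.55 per kb). The functional segments were higher per kb in 4 of 4 libraries, at 3.94, 5.45, 7.19 and 3.94 fragments per kb against 0.510, 0, 0.765 and 1.28. The 3 detected pseudogenes were Trbv6, Trbv7 and Trbv24. Trbv8, among those at 0, shares all 256 of its runs of 30 bases with an overlapping annotated gene. Its fragments may therefore not be countable. Trbv24 had 0 fragments in wild type and 2 and 4 in the KO libraries.

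The V fragments were concentrated in a run of 6 segments, Trbv12-1 to Trbv13-3, at 41113550 to 41130585 in the upstream part of the locus. The run was singled out after its values were seen, so its share is a description. These took 47.2%, 42.6%, 56.9% and 30.8% of V fragments in WT 1, WT 2, KO 1 and KO 2, against 17.5% of the V exon length. The exact binomial 95% intervals lay above that share in WT 1, WT 2 and KO 1 (lower bounds of 30.4, 28.3 and 44.0%), while that of KO 2 reached down to 17.02%. Trbv12-1 was the most abundant V segment, with 6, 5, 13 and 1 fragments in WT 1, WT 2, KO 1 and KO 2 (0.98, 0.78, 2.11 and 0.17 FPKM). Its highest and lowest values were both in KO libraries. Trbv13-1 had 2, 5, 10 and 3 fragments (0.35, 0.83, 1.72 and 0.54 FPKM). Trbv13-2 had 4, 4, 8 and 4 (0.74, 0.72, 1.49 and 0.78 FPKM) and Trbv12-2 had 2, 2, 5 and 4 (0.33, 0.32, 0.82 and 0.69 FPKM). These segments resemble each other, with 2.74% to 12.5% of their runs of 30 bases shared within the group, so a few fragments could be assigned to the wrong neighbour. KO 1 was the highest library for each of these 4, but not for Trbv13-3 at the end of the run, which had 3, 4, 1 and 0 fragments and was lower in both KO libraries. Trbv12-3, a pseudogene in the same run, was at 0 in every library.

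Outside that run, 3 further V segments reached 10 fragments. Trbv1, the most upstream segment, at 40891229 to 40891885, had 6 and 6 fragments in wild type and 5 and 3 in the KO libraries (0.91, 0.88, 0.76 and 0.48 FPKM). Trbv16 had 4, 1, 4 and 3 (0.64, 0.15, 0.63 and 0.50 FPKM), and Trbv3 had 1, 4, 5 and 1 (0.14, 0.54, 0.69 and 0.15 FPKM). For Trbv16 and Trbv3 the groups overlapped. The other 16 detected V segments held 1 to 8 fragments each over all libraries. Trbv31, which lies beyond Trbc2 on the opposite strand, was among them with 2, 1, 0 and 1 fragments. Trbv4 and Trbv5 overlap a long noncoding gene, with which they share 73.6% and 78.8% of their runs of 30 bases, and that gene was listed at 0 in every library.

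Between the upstream V segments and the D-J-C clusters lie trypsinogen genes, which encode digestive enzymes of the pancreas. Others of the listed trypsinogen genes lie between Trbv1 and Trbv2. From Trbv1 to Trbv31 there were 28 other annotated genes, 24 of them at 0 in every library. The 28 genes together held 30 fragments on 22.3 kb of exon, or 1.35 per kb, below the functional V segments in 4 of 4 libraries. Prss2, the trypsinogen gene closest to Trbd1, had 3, 0, 5 and 4 fragments in WT 1, WT 2, KO 1 and KO 2. Of a list of 12 trypsinogen genes found in the files, 9 were at 0 in every library and none was tested. Of 13 listed genes outside the ends of the locus 5 were tested, 3 with a positive and 2 with a negative log2 change, and 0 passed. The smallest p was that of Zyx, a cytoskeletal protein gene, at 33.94 and 33.00 FPKM in the WT libraries and 57.81 and 82.96 FPKM in the KO libraries (adjusted p = 0.280 in limma). Prss2 was singled out after its values were seen.

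The comparison of the genotypes asks which transcripts differ in these cells when ADAR1 is recorded as lost. For the T cell receptor beta segments no difference passed. The test was limma on log2(FPKM + 1) for 12708 genes, those averaging 1 FPKM or more across the 4 libraries and holding at least 10 fragments in all, with Benjamini-Hochberg adjustment and a threshold of 0.05. It took in 10 of the 53 segments, and 0 of the 10 passed, where 0.244% of all genes tested did (31 genes, 0.00787% higher and 0.236% lower). At that background rate a call among 10 genes would be rare. At an unadjusted p under 0.05 there were 2, both higher in the KO libraries (12.4% of all genes in either direction), and with voom on the estimated fragments there were 0 at an unadjusted p under 0.05. Those 2 were Trbd1, with a log2 change of 1.51 ± 0.40 (SE, adjusted p = 0.332 in limma), and Trbj1-1, at 0.73 ± 0.19 (SE, adjusted p = 0.332). Trbd1 rests on 12 fragments, which this model of FPKM does not take into account. It reached the minimum of 10 only through the 9 in the KO libraries, so the filter favoured a higher KO value and its p supports nothing. The same holds for Trbj1-1, with 4 and 3 fragments in the WT libraries and 6 and 6 in the KO libraries. With voom the SE of Trbj1-1 was 0.64. Without WT 2 the log2 changes were 1.93 for Trbd1 and 1.65 for Trbj1-4. The wild type group was then WT 1 alone, with 1 fragment on Trbd1, and its spread was assumed to be that of the KO pair and of genes of like level. For Trbj1-4 the wild type libraries held 2 fragments in WT 1 and 8 in WT 2. Apart from Trbd1 and Trbj1-1, the tested segments had log2 changes between -0.24 (Trbc1, SE 0.16) and 0.85 (Trbj1-4, SE 0.63) with all 4 libraries. Among them Trbv12-1 was at 0.02 ± 0.48 (SE), and the adjusted p in limma was at least 0.511 for each.

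Groups that do not overlap were also counted, over the 37 detected segments. For 11 (29.7%) both KO values exceeded both WT values, and for 5 (13.5%) both were smaller. Among all genes above 0 in some library these shares were 17% and 20.4%, and among genes with 1 to 49 fragments, a range that takes in 35 of the 37 segments, they were 13.2% and 8.85%. Of the 11 segments 4 had at least 10 fragments (Trbv12-2, Trbv13-2, Trbd1 and Trbj1-1), and of the 5 there were 3 (Trbv1, Trbj1-3 and Trbc1). This minimum adds no support, because fragments of the higher group count towards it. Trbv12-2 had 2 and 2 fragments in wild type against 5 and 4, and Trbd1 had 1 and 2 against 6 and 3. These segments reached it mainly through the KO libraries. For Trbv13-2, Trbv14 and Trbv20, KO 2 held the same number of fragments as WT 2 (4, 2 and 1). Its FPKM was higher there only through its smaller depth. In bulk RNA, fewer cells of a type and less RNA per cell cannot be told apart.

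Genes of T cells were read beside the locus, since T cells in the sort would bring rearranged beta transcripts. Genes of the receptor complex were detected at a low level. Cd3d, a chain of the CD3 complex that carries the T cell receptor, had 1.46 and 2.58 FPKM in the WT libraries and 2.09 and 1.38 FPKM in the KO libraries. Cd3e was at 0.67 and 0.54 against 0.85 and 0.55 FPKM, and Cd3g at 1.16 and 1.06 against 0.85 and 0.38 FPKM. The first and second of these overlapped between the groups, and Cd3g was lower in both KO libraries without passing the filter. Trac, the constant segment of the alpha chain, was at 3.45 and 6.06 against 3.85 and 3.82 FPKM, below Trbc1 in WT 1, KO 1 and KO 2 and above it in WT 2. Trdc, the constant segment of the delta chain, was at 0.61 and 0.47 against 0.33 and 0.38 FPKM, and Trgc1, of the gamma chain, at 2.33 and 1.32 against 3.42 and 2.79 FPKM (adjusted p = 0.427 in limma). Bcl11b, a factor that commits cells to the T lineage, stood at 0.24, 0.16, 0.26 and 0.18 FPKM. Ptcra, the pre-T alpha chain of thymocytes, was at 0 in WT 1 and at or below 0.10 FPKM elsewhere. The part of T cells in the beta fragments was not tested.

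**Figure D4:**
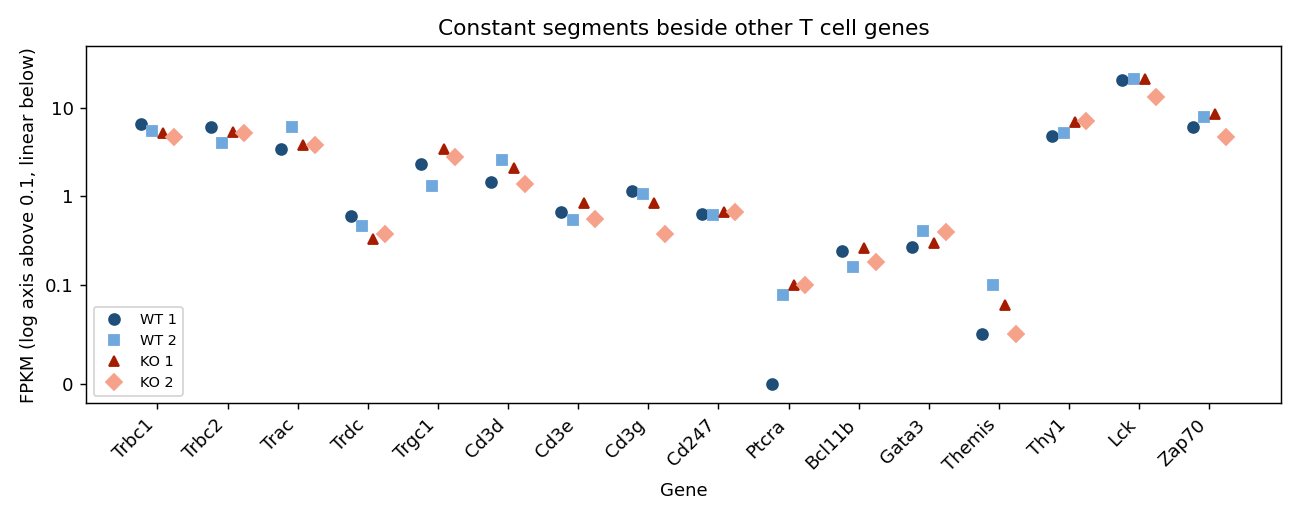
FPKM of Trbc1 and Trbc2 beside other T cell receptor and T cell genes in each library (log axis above 0.1 FPKM, linear below). The constant segments lie between 4.05 and 6.59 FPKM, above the 3 CD3 genes at 0.38 to 2.58 FPKM and above Bcl11b, while Lck reaches 13.18 to 21.21 FPKM.

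The lists of T cell genes gave no call. Of 16 genes of receptor complex and signalling 8 were tested, 3 positive and 5 negative, with a summed level of 61.18 and 70.52 FPKM for WT and 70.82 and 44.97 FPKM for KO. Of 12 genes of T lineage commitment and thymocytes 9 were tested, 6 positive and 3 negative, and the sums were 223 and 219 against 284 and 212 FPKM. The largest parts of these sums were Dntt, at 113 and 104 against 142 and 111 FPKM, and Rag1, at 49.8 and 54.8 against 68.0 and 35.3 FPKM. Of 5 other receptor constant segments 2 were tested, 1 in each direction (8.74 and 9.69 against 8.34 and 8.82 FPKM). Over these lists 0 genes passed in limma, 2 had an unadjusted p under 0.05 and 1 did with voom. The 2 were Thy1, a surface protein of T cells, at 4.86 and 5.27 against 6.89 and 7.20 FPKM, and Notch1, the receptor that starts T cell development, at 9.33 and 10.48 against 15.44 and 18.16 FPKM. Without KO 1, 7 of the 19 tested genes passed, Notch1 and Cd4 higher and Lck, Cd2, Lef1, Rag1 and Rag2 lower. In that fit the KO group was KO 2 alone, the library that stood apart, and 22.7% of all genes tested passed (2884). Lef1 and Rag1 are named here after their values were seen. Lck, Lef1, Rag1 and Rag2 are also known to be expressed in early B cells.

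Markers of other cells that can transcribe T cell receptor segments had mostly positive log2 changes, and 0 passed in limma. Over all 12708 genes tested 62.4% were negative, and 12.4% had an unadjusted p under 0.05. All 12 NK cell markers were tested, 10 positive and 2 negative, with 1 at an unadjusted p under 0.05, and summed to 67.74 and 57.15 FPKM for WT and 69.91 and 130.7 FPKM for KO. KO 2 was the highest, and most of its excess lay in Nkg7, a granule protein gene of cytotoxic cells, which gave 79.15 FPKM there and 26.52, 22.46 and 27.77 FPKM in WT 1, WT 2 and KO 1. Without Nkg7 the sums were 41.2, 34.7, 42.1 and 51.6 FPKM. All 12 plasmacytoid dendritic cell markers were tested, also 10 positive and 2 negative, with 5 at an unadjusted p under 0.05 (sums of 480 and 477 for WT, 503 and 434 FPKM for KO). For 9 both KO values exceeded both WT values and for 2 both were smaller (19.3% and 32% of all genes tested). The smallest p was that of Cox6a2, at 13.77 and 10.12 against 26.83 and 26.94 FPKM (adjusted p = 0.179 in limma). The 2 negative markers, Spib and Ly6d, hold much of the sums. Spib, also in the B lineage list, was at 160.5 and 188.13 against 138.54 and 59.85 FPKM. Ly6d was at 107.26 and 112 against 92.06 and 71.63 FPKM. Both are named after their values were seen. No marker of either list was at 0 over the libraries. All 14 neutrophil genes were positive with 0 passing, and 19 of 20 B lineage genes were negative with 0 passing. In a list of antibody-secreting cell markers 8 of 10 were tested and 2 fell, the antibody joining chain gene Jchain (105.85 and 91.45 against 0.25 and 0.45 FPKM) and the IgA constant gene Igha (304.55 and 216.96 against 0.33 and 0.20 FPKM). Of 10 regulators of the beta locus 8 were tested, 3 positive and 5 negative with 0 passing. Among them Gata3, a T lineage factor picked out after its values were seen, stood at 0.27 to 0.41 FPKM with overlapping groups.

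The other antigen receptor loci were set beside the beta locus to place its level. Summed over V segments the beta locus reached 6.07 and 7.53 FPKM for WT and 10.85 and 6.67 FPKM for KO, and its C segments summed to 12.63 and 9.58 against 10.61 and 9.84 FPKM. The 128 alpha V segments summed to 2.98 and 4.87 against 7.90 and 5.92 FPKM, a level close to that of the beta V segments. Each immunoglobulin locus was above the beta locus in every library, for V and for C, and was lower in both KO libraries than in both WT libraries. The margin over the beta locus was smallest for lambda. Its V segments were at 28.6 and 18.4 FPKM in KO 1 and KO 2 after 220 and 142 FPKM in wild type. Its C segments were at 37.13 and 21.65 FPKM after 161.23 and 132.45 FPKM. Kappa V segments summed to 1548 and 1515 against 142 and 47.4 FPKM, and Igkc was at 1728 and 1697 against 313 and 111 FPKM. Heavy chain V segments summed to 1546 and 1819 against 580 and 222 FPKM. The ratios of wild type to KO means were 16.2 for kappa V, 4.20 for heavy V and 7.72 for lambda V, against 0.776 for beta V, 0.568 for alpha V and 1.15 for gamma V. Whether the loci differ in this was not tested.

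**Figure D5:**
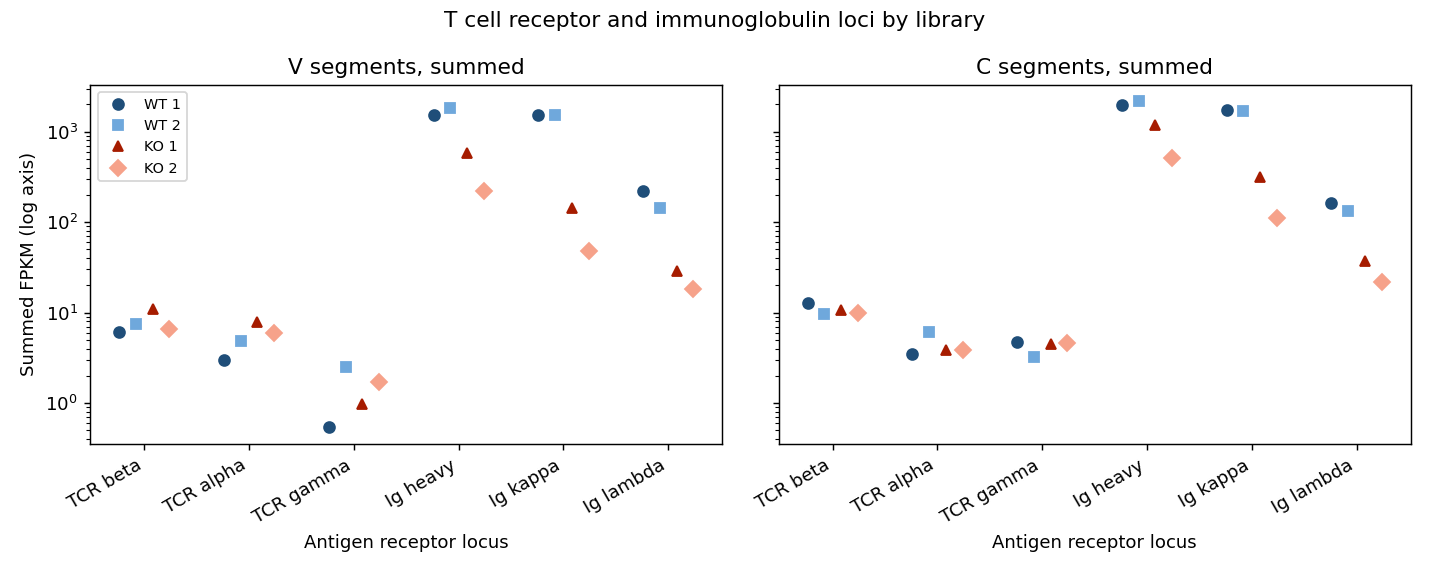
Summed FPKM of V segments (left) and C segments (right) of 6 antigen receptor loci in each library, on a log axis. The 3 immunoglobulin loci are higher in both WT libraries than in both KO libraries, whereas the beta locus stays between 6.07 and 10.85 FPKM for V and between 9.58 and 12.63 FPKM for C.

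A spliced receptor transcript holds 1 V and 1 C segment, so the ratio of summed V to summed C FPKM gives a rough idea of how V and C reads are balanced. At the beta locus it was 0.481 and 0.786 in WT 1 and WT 2 and 1.02 and 0.678 in KO 1 and KO 2. At the kappa locus it was 0.896 and 0.892 in wild type and 0.454 and 0.427 in the KO libraries. At the heavy chain locus it was 0.788 and 0.838 against 0.487 and 0.430. For lambda it was 1.37 and 1.08 against 0.771 and 0.848. For alpha it was 0.864 and 0.804 against 2.05 and 1.55, and for gamma 0.113 and 0.778 against 0.220 and 0.368. Groups overlapped for the beta and gamma loci. Both KO ratios were below both WT ratios for the kappa, heavy chain and lambda loci, and above them for the alpha locus. The beta ratio rests on 36 to 65 V fragments a library, and the alpha ratio on 18 to 49. These values do not show whether a V and a C fragment came from the same transcript, nor whether a beta fragment came from a rearranged gene or from germline transcription.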

How the data were processed

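Per the labels' protocols, sorted Fr.C+C' cells were lysed in Trizol, and Illumina libraries started from 1 µg RNA of RIN above 6.5. The authors deposited FPKM per Ensembl gene. The submitters' processing notes name the build mm9. The sources used here give no aligner, counter, annotation or strandedness. Symbols, GRCm38 coordinates and union exon lengths came from GENCODE M21, which matched 55394 of 55573 identifiers.

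Fragments were estimated as FPKM times exon length times depth, the depth being the value at which low FPKM of genes of 150 to 500 nt became whole. Of 1013 to 1165 values per library, at least 99.3% lay within 0.15 fragments of a whole number (chance, 30%). All 212 values of the 53 segments did as well, but the many at 0 are whole at any depth. Fragment numbers, intervals and limits cover counting error only. Libraries of the same group were not duplicates (their chi-square over genes, divided by its degrees of freedom, was 7.73 for WT and 54.7 for KO).

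The main test was limma 3.58.1 (R 4.3.3) with a trended prior, no covariate and a pseudocount of 1 FPKM, run on simulated data first. Log2 changes, KO minus WT, understate low genes. Single values were compared by exact permutation. Alternatives were a pseudocount of 0.1, other filters and scalings, voom, blocks and leaving out each library. Named with values were C and D segments, other segments with at least 10 fragments, and from each of 11 gene lists at most 5 genes of smallest p, plus set markers. The members and lists were chosen with earlier results of these data known.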

Additional observations from a re-analysis of the deposited data

How the results depend on the processing

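The segments tested gave 0 calls in every setting but 2. These were the fit without WT 2 (Trbd1 and Trbj1-4, so leaving out single libraries gave 0 to 2) and the crossed block described next (1). The counts over all genes moved more. With all libraries 31 genes passed, against 16 with a pseudocount of 0.1, 0 with no filter on low values (2257 at an unadjusted p under 0.05), 12 with voom on estimated fragments, and 39 to 2884 when single libraries were left out, the highest without KO 1. Titles give both groups the numbers 1 and 2, but nothing says that a number marks shared animals. With the replicate number as a block 95 genes and 0 segments passed, and with crossed numbers as a block, chosen after seeing the data, 419 genes and 1 segment. T cell list members gave 0 calls, and 0 to 7 when single libraries were left out. The causes were not tested.

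Scaling to the B lineage list, whose sum was lower in the KO libraries, raised the log2 ratios of class sums from 0.38 to 1.01 for V, from 0.55 to 1.29 for J and from -0.13 to 0.57 for C. Leaving out single libraries gave 0.0046 to 0.67 for V, 0.46 to 0.63 for J, -0.31 to 0.083 for C and 1.10 to 2.19 for D. The signs of low segments were not stable. Trbv12-1 was at -0.34 with a pseudocount of 0.1 and at -0.33 with voom, and Trbj1-2 at 0.013 with median centring and 0.023 with quantile normalization. Leaving out single libraries took Trbv12-1 from -0.68 to 0.73, Trbj1-2 from -0.55 to 0.45, Trbj1-5 from -0.015 to 1.14, Trbj1-6 from -0.42 to 0.66 and Trbc2 from -0.17 to 0.31. Trbc1 and Trbj1-3 stayed negative and Trbj1-1 and Trbd1 positive in all of these settings that could be run. With 1 to 27 fragments on most segments, changes of a few fragments cannot be told from counting error.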
